A study of Macaca fascicularis with 20 samples.

Results

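Splenic natural killer (NK) cells of the cynomolgus macaque, Macaca fascicularis, were set against splenic B cells over all 20 arrays of the series, 18 of NK cells and 2 of B cells, chosen by their sample titles. The cells were cryopreserved spleen cells that had been thawed, stained and sorted unstimulated, and no agent or genetic change is given in the labels. NK cells were NKG2A+ CD8a+ cells of the live CD45+ CD3- CD14- CD20- HLA-DR- gate. They were divided by CD27 and CD11b into CD27loCD11blo (double-low, 4 arrays), CD27+CD11blo (CD27 single-positive, 4 arrays), CD27+CD11b+ (double-positive, 5 arrays) and CD27loCD11b+ (CD11b single-positive, 5 arrays). B cells were NKG2A- CD8a- HLADR+ CD20+. In each NK subset replicate 1 was labelled as a male of 4 years from Cambodia and replicate 2 as a male of unstated age from Vietnam. Replicate 3 was labelled as a male from Vietnam, with an age of 9, 10, 11 or 12 years depending on the subset. The label of a female of 18 years from Singapore was carried by replicate 4 of the double-low and CD27 single-positive cells and by replicate 5 of the double-positive and CD11b single-positive cells, and that of a male of 5 years from Singapore by replicate 4 of the latter pair. B cell replicate 1 was labelled as a female of 5 years and B cell replicate 2 as a female of 18 years, both from Singapore. No B cell array was labelled as male or as from Cambodia or Vietnam, while most NK arrays were. Over all arrays, sex and origin therefore cannot be fully told apart from cell type. The labels do not state which arrays came from the same animal, and the main fit treated all arrays as independent. Its p-values rest on 1 estimate of spread shared by all 20 arrays, because 2 B cell arrays alone give almost none. That estimate comes mostly from the spread between NK arrays of the same subset.

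NK cells are innate lymphocytes that kill virus-infected and transformed cells. They carry preformed granules of perforin and granzymes. Many of their activating receptors have no enzymatic part of their own and signal through small partner chains with ITAM motifs. These motifs are the phosphorylation sites that recruit Syk-family kinases. B cells recognise antigen through surface immunoglobulin, present it on MHC class II and, with T cell help, switch and mutate their antibody genes in germinal centres. PAX5 and EBF1 hold B cells to their lineage, and EOMES with ID2 does so for NK cells.

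Each sample gave 50 ng of total RNA, which was amplified, and 400 ng of product was labelled and hybridised to a custom array with 1 dye. The 75th percentile of signal ranged from 180 to 1897 intensity units over the arrays, each array held 67.9% to 96.0% of its probes well above background, and no spot was saturated. The arrays stood on 3 slides, and both B cell arrays shared the second slide with 6 NK arrays. Double-positive and CD11b single-positive cells had only their replicate 3 on that slide. Fits on the second slide alone therefore rest on few arrays for their spread, and more on the B cell pair than the main fit does. All levels below are log2 intensity minus the log2 75th percentile of the same array, so that 1 unit is a 2-fold step, and all differences are the mean of the 4 NK subset means minus the B cell mean, with limma's standard error (SE). Levels of different genes come from different probes and were not compared. The 2 B cell arrays resembled each other more than any same-subset NK pair did: their median absolute gap over genes was 0.35 (Pearson r = 0.96 across genes), against gaps of 0.49 to 1.38 (r = 0.70 to 0.91) in 32 NK pairs. Genes are not independent replicates, so these correlations describe the arrays only.

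Markers of each cell type followed the sort labels. EOMES, the T-box factor of NK cells, had levels of -0.80 to 3.39 (median 1.51) in the 18 NK arrays and of -4.36 and -7.46 in the B cell arrays, of which 1 was well above background. KLRD1, the CD94 partner of the NKG2 receptors, had levels of 1.37 to 4.67 (median 2.92) in NK cells and of -3.97 and -3.52 in B cells. For both genes every NK array lay above both B cell arrays, and the differences were 7.31 ± 0.84 (SE, limma adjusted p = 3.01e-05) and 6.67 ± 0.57 (adjusted p = 7.71e-07). PAX5 had levels of -5.53 to -2.85 (median -3.60) in NK cells and of 0.98 and 0.77 in B cells, a difference of -4.71 ± 0.52 (limma adjusted p = 1.9e-05). CD22, an inhibitory B cell lectin, had levels of -3.07 to 0.12 (median -2.29) in NK cells and of 3.77 and 3.52 in B cells, a difference of -5.74 ± 0.58 (limma adjusted p = 6.82e-06). The NK arrays lay below both B cell arrays for these genes, yet 16 of 18 NK arrays held PAX5 and 18 of 18 held CD22 well above background. Of the gate's other genes with a matched probe, CD27 differed by 1.38 ± 0.47 (adjusted p = 0.107), and PTPRC, which encodes CD45, by -0.47 ± 0.51 (adjusted p = 0.547).

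Of 12388 genes tested, 213 were higher in NK cells (1.72%) and 149 were lower (1.2%) at an adjusted p under 0.05, and 2806 had an unadjusted p under 0.05. Differences of called genes ranged in size from 1.39 to 7.51. For 194 of the 213 genes the lowest NK array exceeded the higher B cell array, an order that 922 of all genes (7.44%) had. For 142 of the 149 the highest NK array was below the lower B cell array, as for 395 of all genes (3.19%). The counts moved with individual arrays. Each setting below reuses arrays of the main fit, so an overlap of calls gives no separate support. Without B cell replicate 1, 35 genes were higher and 29 lower, without B cell replicate 2 the counts were 32 and 32, and without CD11b single-positive replicate 4 they were 519 and 200. Among the 8 arrays of the second slide alone 1434 genes were higher (11.6%) and 490 lower (3.96%), including 309 of the 362 genes called over all arrays, and with slide as a block the counts were 401 (3.24%) and 199 (1.61%).

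The side with more called genes changed with the normalization and background correction, and did not change with the filter on dim probes. Of the 213 genes higher in NK cells, 100 were not well above background on either B cell array, and of the 149 lower genes 2 were not well above background on any of the 18 NK arrays. Without a filter 215 genes were higher and 151 lower. Quantile normalization left 89 genes higher (0.718%) and 163 lower (1.32%), and background correction by normexp with quantile normalization left 57 and 237. Of the 100 genes that the B cell arrays did not hold above background, 18 were still called after quantile normalization and 3 after normexp. Of the other 113, 69 and 53 were. The median difference of all genes was 0.36 here, 0.18 after quantile normalization and 0.13 after normexp. The dimmest 5% of genes lay below -7.24 and -6.91 in the B cell arrays, and in 16 of 18 NK arrays the same percentile was higher than in both. In B cell replicate 1, 490 genes shared its lowest value. The part of these values in the count of higher genes was not tested.

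**Figure D1:**
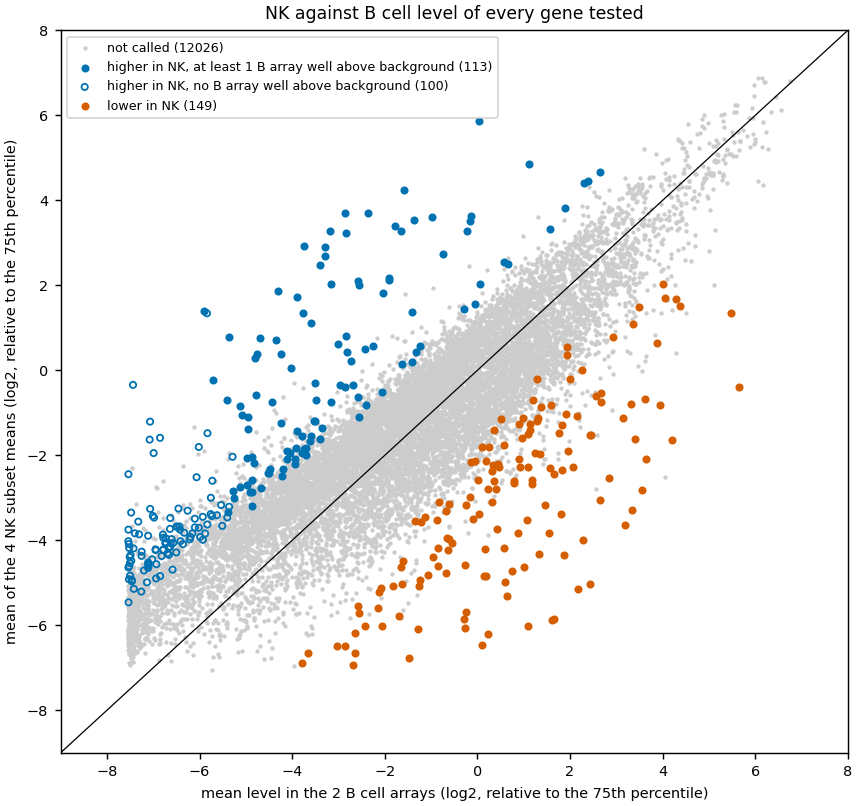
Mean level in the 2 B cell arrays (horizontal, log2 relative to the array's 75th percentile) against the mean of the 4 NK subset means (vertical, same unit) for each of 12388 genes, with the line of equality. Open circles are the 100 genes called higher in NK cells that no B cell array held well above background, and they crowd at the lower left, while the other 113 higher genes (filled blue) and the 149 lower genes (orange) spread over the range.

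A core of 46 genes was called in the same direction under all 8 of these treatments: all arrays, slide as a block, the second slide alone, quantile normalization, normexp, the deposited matrix, and without each B cell array in turn. It held 23 genes higher (0.186% of all) and 23 lower (0.186%), with fitted differences from 3.48 to 7.33 in size. The higher side was EOMES, TRAT1, KLRD1, HOPX, GZMH, CRTAM, GZMK, KLRB1, PRF1, GZMB, IL2RB, NKG7, DHRS7, GNLY, GATA3, CST7, LOC102144764, PRKCQ, ID2, SLA2, TYROBP, CCDC169 and SH2D2A. The lower side included LMO2, SLC15A2, CHST15, POU2AF1, STAP1, LOC102144039, BACH2, CD22, MAP3K20, TSPAN33, BCL11A, WDFY4, RPRML, CD1C, PAX5, SLC45A3, SEMA4A, CYB561A3, KBTBD8, DNMT3L, PARM1 and CTSH. The differences of TRAT1 and CCDC169, with no B cell array well above background, are bounded rather than measured, and 1 of the 2 B cell arrays held EOMES and GATA3 above it. The rule for the core itself requires a call without each B cell array. Outside the core, among genes named here, the call was lost without B cell replicate 1 for DAPP1, CD74, INPP4B, CD247, FCRL1, GPR183, PRKCH, CCL3, LY86, CR2, EAF2, CXCR5, TGFBR3, NCF1, RGS13, IFI30, CAMK4, GBP1, CD7, ZAP70, FCER1G, SWAP70, EBF1, GCSAM, CYBB, BANK1, AREG, FCRL2, RGS3, CSF2RB, OAS1, BLNK and ELL3. GZMA, CTSW, SPI1, LYN, TNFRSF13B, CD200 and CD24 also lost it, both without B cell replicate 1 and without B cell replicate 2. Without B cell replicate 2 the call was lost for many genes of the longer list too, and for TSPAN2, FCRLA, SH2D1A and ZG16.

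**Figure D2:**
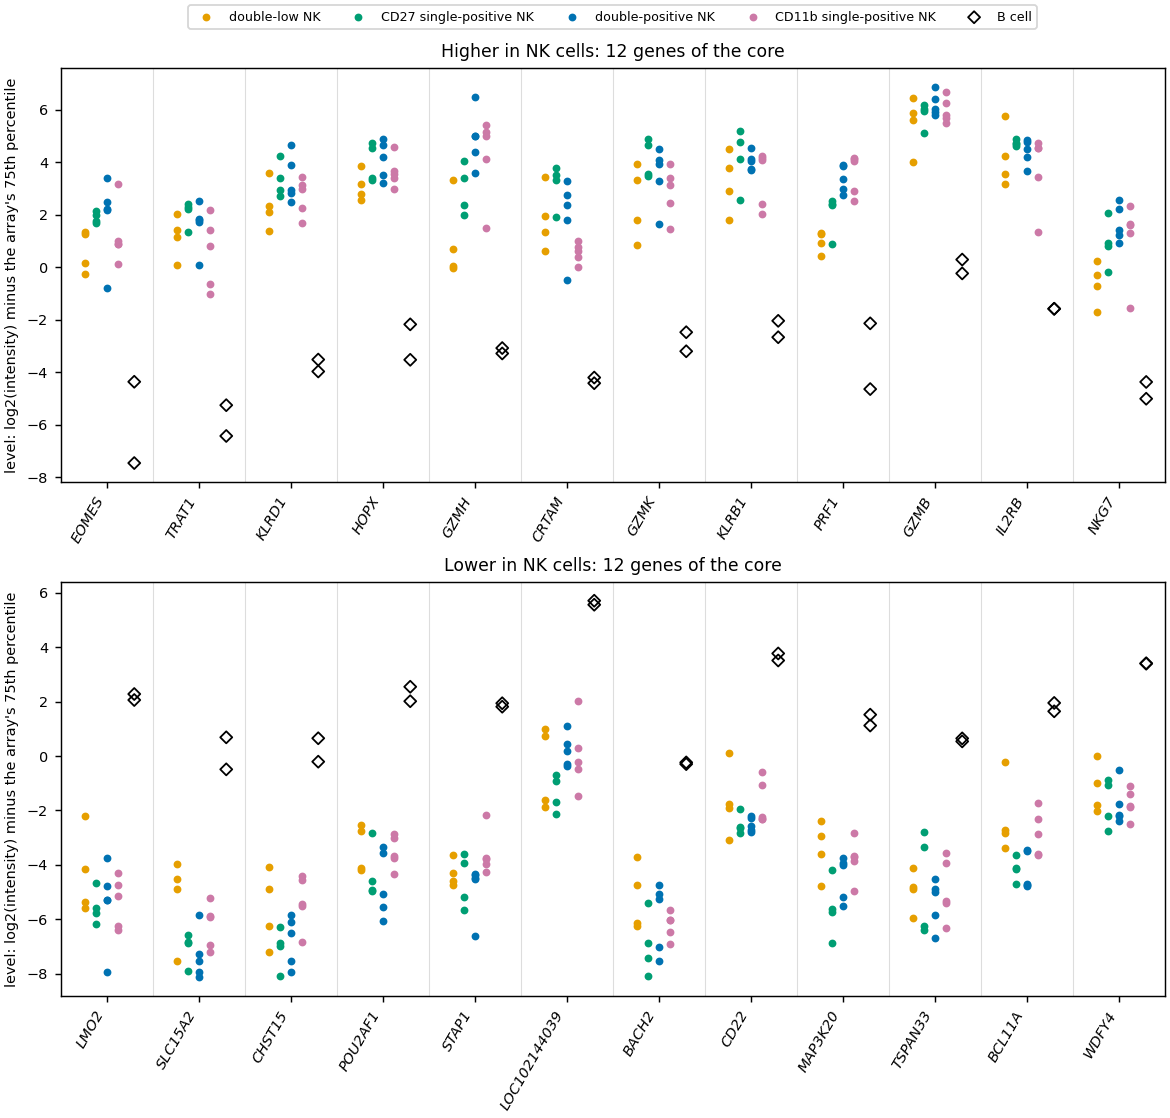
Level in each array (vertical, log2 relative to the array's 75th percentile) of 12 core genes with large differences in each direction. Each dot is an NK array coloured by subset and each open diamond a B cell array, and for every gene drawn the 18 NK arrays lie entirely on the same side of both B cell arrays.

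The killing machinery had the highest median difference of the 38 lists. Of 16 measured genes of cytotoxic granules and killing, 9 were higher in NK cells and 0 lower, with a median of 4.99, against 0.36 over all genes. GZMB, the granzyme that cleaves caspases, had levels of 4.01 to 6.87 (median 5.93) in NK cells and of 0.29 and -0.24 in B cells. PRF1, the pore-forming perforin, had levels of 0.44 to 4.15 (median 2.63) in NK cells and of -2.14 and -4.64 in B cells. Neither gene overlapped between the cell types, and they differed by 5.84 ± 0.46 (limma adjusted p = 2.11e-07) and 5.87 ± 0.56 (adjusted p = 4.21e-06). GNLY, which encodes the antimicrobial granulysin, differed by 5.19 ± 0.65 (limma adjusted p = 6.86e-05), and NKG7, a granule membrane protein, by 5.44 ± 0.72 (adjusted p = 0.000125). GZMK (6.08 ± 0.73, limma adjusted p = 4.04e-05) and GZMH (6.46 ± 0.88, adjusted p = 0.000169) were higher as well, as were CST7, CTSW and GZMA. CST7 encodes cystatin F, an inhibitor of the cathepsins that activate granule proteases, and differed by 4.93 ± 0.69 (limma adjusted p = 0.00023). GZMA had a large difference of 6.18 but the widest error of the called members, 1.40 (limma adjusted p = 0.0204).

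Among 14 measured NK receptors 4 were higher and 0 lower (median 1.57). KLRB1, which encodes CD161, had levels of 1.79 to 5.20 (median 4.06) in NK cells and of -2.04 and -2.67 in B cells, with no overlap and a difference of 6.06 ± 0.66 (limma adjusted p = 1.78e-05). Its second probe differed by 2.96 and was called too. CRTAM, an adhesion receptor of cytotoxic lymphocytes, differed by 6.18 ± 0.71 (limma adjusted p = 3.04e-05), and CD7 by 4.10 ± 0.80 (adjusted p = 0.00631). CD226, the activating receptor DNAM-1, had every NK array above both B cell arrays but an adjusted p of 0.0612. The activating receptors NCR1 (NKp46) and NCR3 (NKp30) differed by 1.42 (limma adjusted p = 0.435) and 0.85 (adjusted p = 0.266), with overlapping arrays. These 3 receptors were named after their values were seen.

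Of 5 ITAM and related short chains through which receptors signal, 3 were higher in NK cells and 0 lower (median 3.68). TYROBP (DAP12) had levels of 3.90 to 6.48 (median 4.94) in NK cells and of 0.84 and 1.39 in B cells, a difference of 3.74 ± 0.46 (limma adjusted p = 4.5e-05). CD247 (CD3 zeta) had levels of -0.65 to 4.74 (median 2.79) in NK cells and of -3.69 and -2.92 in B cells, a difference of 6.0 ± 0.91 (limma adjusted p = 0.000577). FCER1G, the Fc receptor gamma chain, differed by 3.68 ± 0.62 (limma adjusted p = 0.00169), but by 3.49 on the second slide alone (adjusted p = 0.0572) and by 2.93 without B cell replicate 1 (adjusted p = 0.201). All NK arrays exceeded both B cell arrays for these 3 chains. CD79B, the B cell receptor's own ITAM chain, differed by -0.99 ± 0.45 (limma adjusted p = 0.199), although every NK array lay below both B cell arrays, and its 3 probes ranged from -1.86 to -0.99 with none called. CD3D, a chain of the T cell receptor complex, had levels of -1.19 to 2.76 (median 0.64) in NK cells and of -1.12 and -2.37 in B cells. Its groups overlapped, and the difference of 2.50 ± 0.85 was not called (limma adjusted p = 0.107).

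Downstream of these chains, 5 of 23 genes of T and NK proximal signalling were higher in NK cells and 0 lower (median 1.67). SH2D2A, the adaptor TSAd, had levels of 1.92 to 4.05 (median 2.59) in NK cells and of -0.49 and -0.98 in B cells, and PRKCQ, protein kinase C theta, had levels of -0.43 to 2.34 (median 0.99) and of -3.47 and -3.72. Neither overlapped, and the differences were 3.48 ± 0.38 (limma adjusted p = 1.67e-05) and 4.71 ± 0.63 (adjusted p = 0.000112). SH2D1A, the adaptor SAP, differed by 6.16 ± 1.03 (limma adjusted p = 0.0016) with 1 of 2 B cell arrays well above background, and ZAP70, the kinase that docks on phosphorylated ITAMs, by 1.99 ± 0.35 (adjusted p = 0.00239). The difference of ZAP70 was small, with little spread: its NK levels lay between 1.80 and 3.14, above B cell levels of 0.34 and 0.79.

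Of 21 measured genes of B cell receptor signalling 7 were lower in NK cells and 0 higher (median -1.16). STAP1, an adaptor of B cell receptor signalling, had levels of -6.60 to -2.17 (median -4.33) in NK cells and of 1.82 and 1.94 in B cells, a difference of -6.22 ± 0.63 (limma adjusted p = 6.92e-06). DAPP1, an adaptor that binds phosphoinositides, differed by -5.56 ± 0.88 (limma adjusted p = 0.000837) with 6 of 18 NK arrays well above background, SWAP70 by -6.38 ± 1.36 (adjusted p = 0.0131, 15 of 18) and the scaffold BANK1 by -3.75 ± 0.82 (adjusted p = 0.0157). For these 4 genes every NK array lay below both B cell arrays. The linker BLNK (-4.99 ± 1.28, limma adjusted p = 0.0407) and the Src-family kinase LYN (-1.98 ± 0.52, adjusted p = 0.0451) were also lower. With slide as a block the call of BLNK was lost (adjusted p = 0.0561), and 11 of 18 NK arrays held it well above background. Only STAP1 of the 7 belonged to the core, whose rule includes a call without each B cell array. The other called members lost their call both without B cell replicate 1 and without B cell replicate 2. The kinases SYK (-1.16 ± 1.0, limma adjusted p = 0.457) and BTK (0.68 ± 0.44, adjusted p = 0.338) were not called. SYK and BTK were named after their values were seen.

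**Figure D3:**
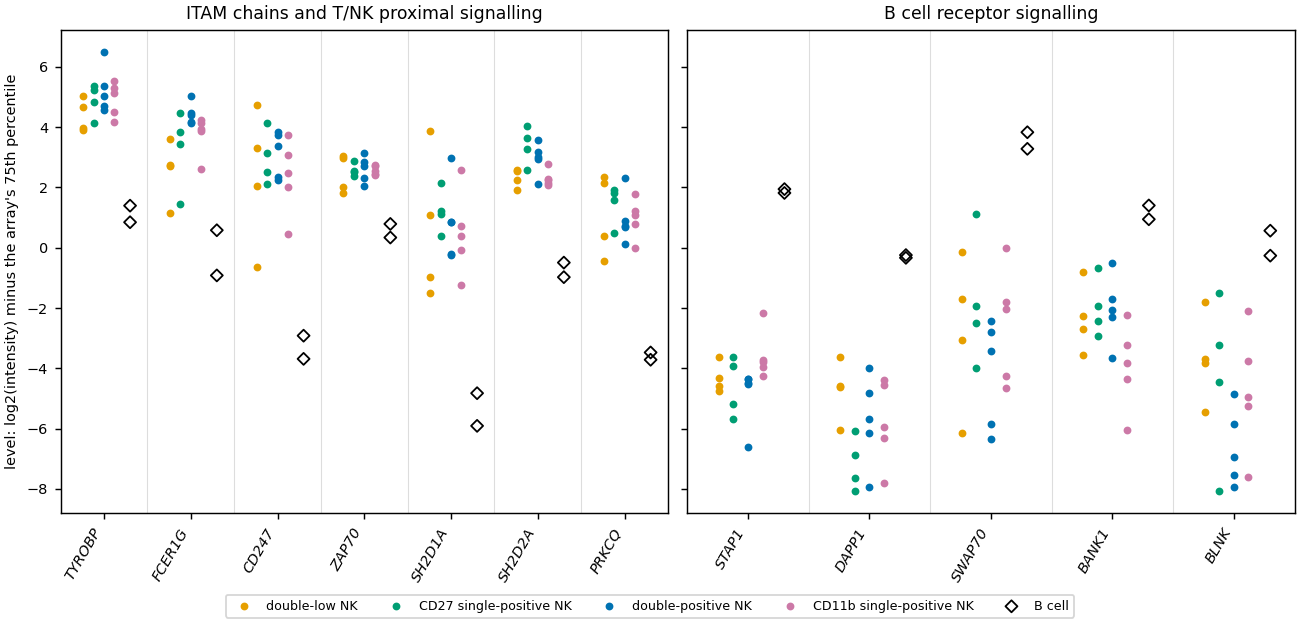
Level in each array (vertical, log2 relative to the array's 75th percentile) of 7 called genes of the ITAM chains and T/NK proximal signalling (left) and of 5 called genes of B cell receptor signalling (right). Dots are NK arrays coloured by subset and open diamonds are B cell arrays; every gene at the left has its NK arrays above both diamonds, and every gene at the right has them below.

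Lineage transcription factors divided in both directions. On the NK side 4 of 19 were higher and 0 lower (median 1.29): EOMES, HOPX, ID2 and GATA3, all core genes. HOPX, a homeodomain-only cofactor, had levels of 2.55 to 4.87 (median 3.52) in NK cells and of -3.53 and -2.18 in B cells, a difference of 6.55 ± 0.50 (limma adjusted p = 2.11e-07). ID2, which restrains E proteins, differed by 4.58 ± 0.56 (limma adjusted p = 4.57e-05), and GATA3 by 5.11 ± 0.65 (adjusted p = 7.74e-05), with 1 B cell array above background for GATA3. TBX21, the T-box partner of EOMES, differed by 1.97 ± 0.60 and was not called (limma adjusted p = 0.0765); it was named after its value was seen.

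On the B cell side 7 of 23 factors were lower in NK cells and 0 higher (median -1.44). LMO2, a bridging factor of transcription complexes, had levels of -7.92 to -2.21 (median -5.28) in NK cells and of 2.28 and 2.06 in B cells, a difference of -7.33 ± 0.86 (limma adjusted p = 3.05e-05). POU2AF1, the OCT coactivator OBF-1, had levels of -6.08 to -2.53 (median -3.93) in NK cells and of 2.55 and 2.02 in B cells, a difference of -6.28 ± 0.69 (limma adjusted p = 1.67e-05). The 2 cell types were well apart for both, and 7 of 18 NK arrays held LMO2 well above background. The repressor BACH2 (-5.81 ± 0.77, limma adjusted p = 0.000112, with 4 of 18 NK arrays well above background) and BCL11A (-5.18 ± 0.65, adjusted p = 5.64e-05) were lower too, as were EBF1 (-3.02 ± 0.66, adjusted p = 0.0158) and SPI1, which encodes PU.1 (-2.22 ± 0.55, adjusted p = 0.033). The other probe of BCL11A gave -7.92 and all 4 probes of EBF1 were called, down to -6.20. For some factors the probes disagreed in call. The brightest probe of MEF2C differed by 0.83 and was not called, while 3 other probes were lower in NK cells, down to -3.20, and were called. Of the 5 probes of IKZF2, 2 were called higher, although the brightest was not. MEF2C and IKZF2 were named after their values were seen.

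B cell surface receptors had the lowest median of all lists, -2.57, with 9 of 16 lower in NK cells and 0 higher. CR2, the complement receptor CD21, had levels of -6.26 to -0.73 (median -3.84) in NK cells and of 3.32 and 3.05 in B cells, a difference of -6.83 ± 1.16 (limma adjusted p = 0.00178). FCRL1 differed by -7.09 ± 1.15 (limma adjusted p = 0.00113) with 7 of 18 NK arrays well above background, FCRLA by -4.27 ± 0.64 (adjusted p = 0.000467) and FCRL2 by -3.36 ± 0.70 (adjusted p = 0.0111), 3 members of the Fc receptor-like family. CD1C, which presents lipid antigen and marks some dendritic cells and splenic B cells, had levels of -2.15 to 1.17 (median -0.81) in NK cells and of 4.28 and 3.61 in B cells, a difference of -4.75 ± 0.57 (limma adjusted p = 4.04e-05). TNFRSF13B (TACI), CD200 and CD24 completed the called genes, at -2.32, -3.42 and -2.65. For CD40, the receptor for T cell help, the brightest probe differed by -0.50 ± 0.49 (limma adjusted p = 0.508) and the other probe by -4.95, which was called, so that its difference depended on the probe; it was named after these values were seen. None of 16 genes of CD40 and NF-kappaB signalling was called (median -0.63), where 2.92% of all genes were. At an unadjusted p under 0.05, 0 were higher and 2 lower, where 2806 of all 12388 genes had such a p. The lowest p was that of BIRC3 (-3.16 ± 1.15, limma adjusted p = 0.124).

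Antigen presentation by class II was lower in NK cells for 3 of 8 measured genes and higher for 0 (median -1.78). CD74, the invariant chain, had levels of -0.18 to 3.47 (median 1.24) in NK cells and of 5.36 and 5.58 in B cells, a difference of -4.11 ± 0.66 (limma adjusted p = 0.00112). CTSH, a lysosomal cathepsin, differed by -3.98 ± 0.54 (limma adjusted p = 0.000154), and IFI30, the thiol reductase GILT, by -5.83 ± 1.16 (adjusted p = 0.00787). All NK arrays lay below both B cell arrays for the 3 genes. CIITA, the class II transactivator, had the same order of arrays but was not called (-1.29, limma adjusted p = 0.075), and was named after its value was seen. By limma, class I presentation gave 0 calls among 11 genes (median -0.31), where 362 of all genes (2.92%) were called. At an unadjusted p under 0.05 it held 0, where 2806 of all 12388 genes had such a p. TAPBP, or tapasin, differed by -0.53 ± 0.43 (limma adjusted p = 0.433) and the chaperone CANX by -0.90 ± 0.51 (adjusted p = 0.284).

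Of 12 measured germinal centre and class switch genes 5 were lower in NK cells and 0 higher (median -2.12). RGS13, which limits chemokine receptor signalling in germinal centre B cells, differed by -5.94 ± 1.02 (limma adjusted p = 0.00195) with 8 of 18 NK arrays well above background, and GCSAM by -2.67 ± 0.50 (adjusted p = 0.00379). The NK arrays lay below both B cell arrays for both genes. ELL3 was lower by the narrowest margin (-3.33 ± 0.88, limma adjusted p = 0.0453), with overlapping arrays, and lost its call on the second slide alone (adjusted p = 0.0603). Of 12 plasma cell and immunoglobulin genes 2 were lower and 0 higher (median -1.09), POU2AF1 and EAF2. All 3 probes of IRF4, a factor of plasma cell differentiation, were lower in sign and 2 were called, although the brightest was not; IRF4 was named after its values were seen. EAF2 differed by -3.22 ± 0.50 (limma adjusted p = 0.00063) and by -6.72 at its other probe. By limma, cell cycle genes gave 0 calls among 16 (median -0.75), where 2.92% of all genes were called. At an unadjusted p under 0.05 they held 0, where 2806 of all 12388 genes had such a p. The median of the cell cycle genes was 0.08 without B cell replicate 1 and -1.59 without B cell replicate 2. MCM3, a subunit of the replicative helicase, differed by -2.69 ± 1.38 (limma adjusted p = 0.247) over all arrays and by -4.66 (adjusted p = 0.0255) on the second slide alone.

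Subunits of the NADPH oxidase, the superoxide-producing complex of phagocytes that B cells also express, were lower in NK cells for all 5 measured genes in sign and for 2 by test (median -2.26). CYBB, its catalytic subunit, had levels of -6.87 to 0.91 (median -3.83) in NK cells, 14 of 18 well above background, and of 3.34 and 3.34 in B cells, a difference of -6.62 ± 1.43 (limma adjusted p = 0.0142). NCF1, a cytosolic subunit, had levels of 0.26 to 1.91 (median 1.09) in NK cells and of 3.45 and 3.26 in B cells, a difference of -2.26 ± 0.39 (limma adjusted p = 0.00215). Neither overlapped, and neither was called without B cell replicate 1 or without B cell replicate 2. Among 21 pattern recognition genes 1 was lower and 0 higher (median -0.57), LY86, which encodes the RP105 partner MD-1 (-3.86 ± 0.58, limma adjusted p = 0.000535).

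**Figure D4:**
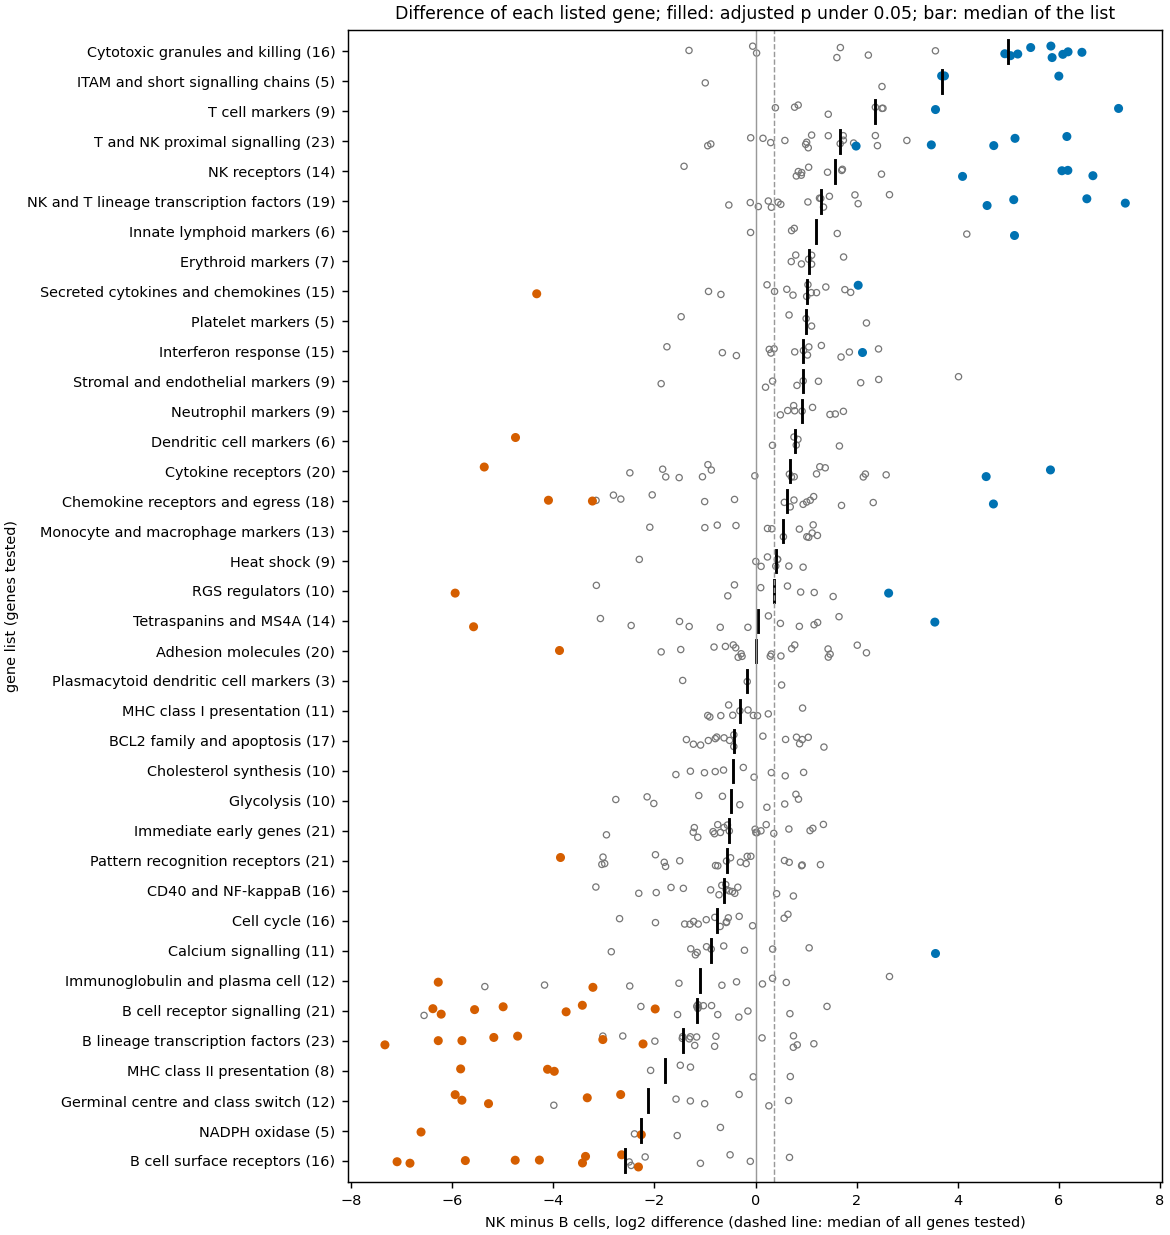
Difference between NK and B cells (horizontal, log2) of every measured gene of the 38 lists (vertical, with the number of genes tested), with filled dots for called genes (blue higher, orange lower), open dots for the rest and a bar at each list's median. Medians run from -2.57 for B cell surface receptors to 4.99 for cytotoxic granules and killing, against 0.36 over all genes (dashed line).

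Receptors for soluble signals had members on each side. Of 20 cytokine receptor genes 2 were higher and 1 lower (median 0.69). IL2RB, the beta chain of the IL-2 and IL-15 receptors, had levels of 1.32 to 5.75 (median 4.54) in NK cells and of -1.58 and -1.58 in B cells, a difference of 5.83 ± 0.65 (limma adjusted p = 2.14e-05). TGFBR3, the co-receptor betaglycan, was higher by 4.56 ± 0.85 (limma adjusted p = 0.00408), with an adjusted p of 0.0561 on the second slide alone, and CSF2RB, the common beta chain of the IL-3, IL-5 and GM-CSF receptors, was lower by -5.37 ± 1.38 (adjusted p = 0.041), with overlapping arrays. CSF2RB lost its call with slide as a block (adjusted p = 0.0649). Chemokine and egress receptors gave 1 higher and 2 lower of 18 (median 0.63). CXCR5, which draws B cells to follicles, had levels of -0.89 to 1.76 (median 0.67) in NK cells and of 3.83 and 3.92 in B cells, a difference of -3.23 ± 0.59 (limma adjusted p = 0.00312). GPR183 (EBI2), the oxysterol receptor that positions B cells, differed by -4.10 ± 0.71 (limma adjusted p = 0.00194). NK arrays lay below both B cell arrays for CXCR5 and GPR183. Neither was called without B cell replicate 1 or without B cell replicate 2. The egress receptors S1PR1 (-2.04) and S1PR5 (2.33) had opposite signs, each with an adjusted p of 0.0777, and were named after their values were seen. The median of 20 adhesion genes was 0.01 and changed sign to -0.02 after quantile normalization.

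Of 15 secreted factors 1 was higher, CCL3 (2.03 ± 0.48, limma adjusted p = 0.0272), and 1 lower, AREG (-4.33 ± 1.06, adjusted p = 0.0329), with a median of 1.01. CCL3, the chemokine MIP-1 alpha, had levels of 3.50 to 5.88 (median 4.66) in NK cells and of 3.32 and 1.97 in B cells. AREG, the growth factor amphiregulin, had levels of -7.48 to -1.26 (median -4.88) in NK cells and of -0.36 and -0.17 in B cells. The groups did not overlap for either gene. AREG was well above background on 10 of 18 NK arrays and lost its call with slide as a block (-3.66, adjusted p = 0.0659). CCL3 lost its call with that block (adjusted p = 0.0571), on the second slide alone (adjusted p = 0.0847) and after quantile normalization (adjusted p = 0.112). RGS regulators held RGS3 higher (2.63 ± 0.70, limma adjusted p = 0.0478) and RGS13 lower among 10 (median 0.37). The call of RGS3 was lost with slide as a block (adjusted p = 0.0591), on the second slide alone (adjusted p = 0.0508) and after quantile normalization (adjusted p = 0.0819). Tetraspanins and MS4A genes likewise gave 1 in each direction of 14 (median 0.05). TSPAN2 was at least 8.06-fold higher in NK cells than the background level of the B cell arrays (limma adjusted p = 0.000768), and TSPAN33 differed by -5.58 ± 0.85 (adjusted p = 0.000566) with 9 of 18 NK arrays well above background. Among 11 calcium signalling genes CAMK4, a calmodulin-dependent kinase, was at least 3.23-fold higher in NK cells (adjusted p = 0.00304) and 0 were lower (median -0.88). TSPAN2 and CAMK4 were not called after normexp with quantile normalization (adjusted p = 0.152 and 0.204). The interferon response gave 1 higher, OAS1 (2.11 ± 0.53, limma adjusted p = 0.0345), and 0 lower of 15 (median 0.95), and OAS1 was not called after quantile normalization (adjusted p = 0.102), with slide as a block (adjusted p = 0.0566) or on the second slide alone (adjusted p = 0.0623).

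Activation, survival, metabolic and stress lists had no call by limma: 0 of 21 immediate early genes (median -0.52), 0 of 17 apoptosis regulators (-0.43), 0 of 10 glycolysis genes (-0.48), 0 of 10 cholesterol synthesis genes (-0.44) and 0 of 9 heat shock genes (0.40). Over all genes 362 (2.92%) were called, so 0 calls in lists of this size is near that share. At an unadjusted p under 0.05 the lists held 2 higher immediate early genes, 3 higher apoptosis regulators, 1 lower glycolysis gene and 1 lower heat shock gene. Of all 12388 genes, 2806 had such a p in either direction. On the second slide alone, at an adjusted p under 0.05, the immediate early genes instead gave 0 higher and 2 lower, the apoptosis regulators 1 and 1, and the glycolysis genes 0 and 1. On that slide 11.6% of all genes were called higher and 3.96% lower. The largest of the values taken here by lowest p was that of HSPA4, a cytosolic chaperone, with every NK array (-3.46 to 0.90) below B cell levels of 1.70 and 1.52 and a difference of -2.30 ± 0.82 (limma adjusted p = 0.119). FOSL2, an AP-1 subunit, differed by 1.13 ± 0.43 (limma adjusted p = 0.137), FAS, the death receptor, by 1.35 ± 0.57 (adjusted p = 0.176), and PKM, a pyruvate kinase, by -2.14 ± 0.82 (adjusted p = 0.143).

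Called genes that belonged to none of the lists numbered 288 of 362. The smallest adjusted p among them was that of LOC102144764, an unnamed locus, with levels of 2.59 to 4.69 (median 3.55) in NK cells and of -1.40 and -1.35 in B cells, a difference of 4.92 ± 0.38 (limma adjusted p = 2.11e-07). SLA2, an adaptor that dampens antigen receptor signalling, differed by 4.04 ± 0.59 (limma adjusted p = 0.000339), and DHRS7, a short-chain dehydrogenase, by 5.19 ± 0.63 (adjusted p = 4.04e-05). PRKCH, protein kinase C eta, was higher by 5.12 ± 0.75 (limma adjusted p = 0.000409), and the interferon-inducible GTPase GBP1 by 4.06 ± 0.68 (adjusted p = 0.00146). Every NK array lay above both B cell arrays for these 5 genes. INPP4B, a phosphoinositide phosphatase, was at its brightest probe at least 14.9-fold higher in NK cells than the background level of the B cell arrays (limma adjusted p = 0.000467). Its 3 probes differed by 2.82 to 5.45, and 2 of them were called. CCDC169 was at least 4.17-fold higher (limma adjusted p = 0.000336). ZG16, a lectin, differed by 4.28 ± 0.72 (limma adjusted p = 0.00153) with B cell levels as far apart as -3.36 and -6.87.

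On the B cell side SLC45A3 had levels of -4.23 to -2.26 (median -3.15) in NK cells and of 1.75 and 1.16 in B cells, a difference of -4.63 ± 0.46 (limma adjusted p = 6.82e-06). WDFY4, a BEACH-domain protein of antigen-presenting cells, had levels of -2.75 to -0.0016 (median -1.82) in NK cells and of 3.41 and 3.40 in B cells, a difference of -5.02 ± 0.57 (limma adjusted p = 2.14e-05). RPRML differed by -4.76 ± 0.49 (limma adjusted p = 8.43e-06), and LOC102144039, another unnamed locus, by -6.02 ± 0.73 (adjusted p = 4.57e-05). All 4 genes kept the NK arrays below both B cell arrays. SLC15A2, a peptide transporter, differed by -6.56 ± 0.77 (limma adjusted p = 3.04e-05), with 2 of 18 NK arrays well above background, so that its NK level was mostly background. CHST15, a chondroitin sulfotransferase, differed by -6.42 ± 0.76 (limma adjusted p = 3.06e-05) with 4 of 18 above it, the kinase MAP3K20 by -5.65 ± 0.67 (adjusted p = 3.3e-05), and DNMT3L, a cofactor of DNA methyltransferases, by -4.16 ± 0.55 (adjusted p = 0.000105). The 3 probes of MAP3K20 ranged from -5.65 to -1.42, and 1 of them was called.

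For the core genes the NK subset means spread over less than the NK minus B difference. This is largely built in, as the core was chosen on that difference. The range of the 4 subset means was a median of 21.1% of the NK minus B difference over the 23 higher genes and 22.7% over the 23 lower genes. It was widest for GZMH (60.2%), where subset means were 1.01 in double-low, 2.95 in CD27 single-positive, 4.90 in double-positive and 4.23 in CD11b single-positive cells. Double-low cells had the lowest subset mean for 17 of the 23 higher genes and the highest for 17 of the 23 lower genes, where over all genes tested they had the lowest mean for 21.1% and the highest for 50.9%. The lower quartile of level was also higher in double-low arrays (-3.37 to -2.81) than in 4 of the 5 double-positive arrays (-4.09 to -3.34 over all 5). It overlapped with that of CD11b single-positive (-3.80 to -2.87) and CD27 single-positive arrays (-3.63 to -3.20). The part of the lower quartile in this order was not tested. For PRF1 the subset means ran 0.97, 2.03, 3.36 and 3.54 in that order, and for BCL11A they ran -2.28, -4.15, -4.24 and -2.83. Differences between subsets were not tested here, and the core was chosen on the NK minus B difference.

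B cell replicate 2 shared its origin, sex and age labels with 4 NK arrays, 1 of each subset. Set against these 4 alone, as a description, all 362 called genes kept their sign. The same arrays were part of the fit that called the genes, so this is largely built in and gives no separate support. EOMES differed by 8.97 in this set, KLRD1 by 7.22, PAX5 by -4.74 and CD22 by -5.89. B cell replicate 1 had no NK array with the same labels.

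Markers of other cells that the sorts could hold were also measured. T cell markers were positive for 9 of 9 genes, with 2 called higher (median 2.37), TRAT1 and CAMK4. TRAT1, which stabilises the T cell receptor complex, had levels of -1.04 to 2.50 (median 1.57) in NK cells and of -5.26 and -6.43 in B cells, where neither array was well above background, and was at least 95.0-fold above the background level of the B cell arrays (limma adjusted p = 4.33e-06). Their summed level, as log2 of summed scaled intensity, was 2.57 to 3.90 in NK arrays and 1.40 and 1.24 in B cell arrays, and 3 of the 9 were not well above background in B cells. The genes of CD3E and CD8A had no matched probe, and the part of T cell RNA in these results was not tested. Monocyte and macrophage markers (0 of 13 called, median 0.55), neutrophil (0 of 9, 0.92), erythroid (0 of 7, 1.05), platelet (0 of 5, 1.0), and stromal and endothelial markers (0 of 9, 0.94) had positive medians, with 1, 2, 2, 1 and 4 genes higher at an unadjusted p under 0.05 and 1 stromal gene lower. Of all 12388 genes, 2806 had such a p in either direction. By adjusted p, 362 of all genes (2.92%) were called in either direction. Summed erythroid levels were 1.94 to 3.66 in NK arrays and 2.16 and 1.97 in B cell arrays, and summed monocyte levels 2.50 to 3.75 and 2.84 and 3.92. COL1A1, a fibroblast collagen, differed by 2.08 ± 0.58 over all arrays (limma adjusted p = 0.0581) and by 2.37 on the second slide alone (adjusted p = 0.0404), where 4 of the 9 stromal and endothelial genes were called higher. On that slide 11.6% of all genes were called higher. Of 6 dendritic cell markers CD1C was lower, 0 of 3 plasmacytoid markers were called (median -0.16), and of 6 innate lymphoid markers GATA3 was higher. As these are bulk sorts, fewer cells of a type and less RNA per cell cannot be told apart.

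**Figure D5:**
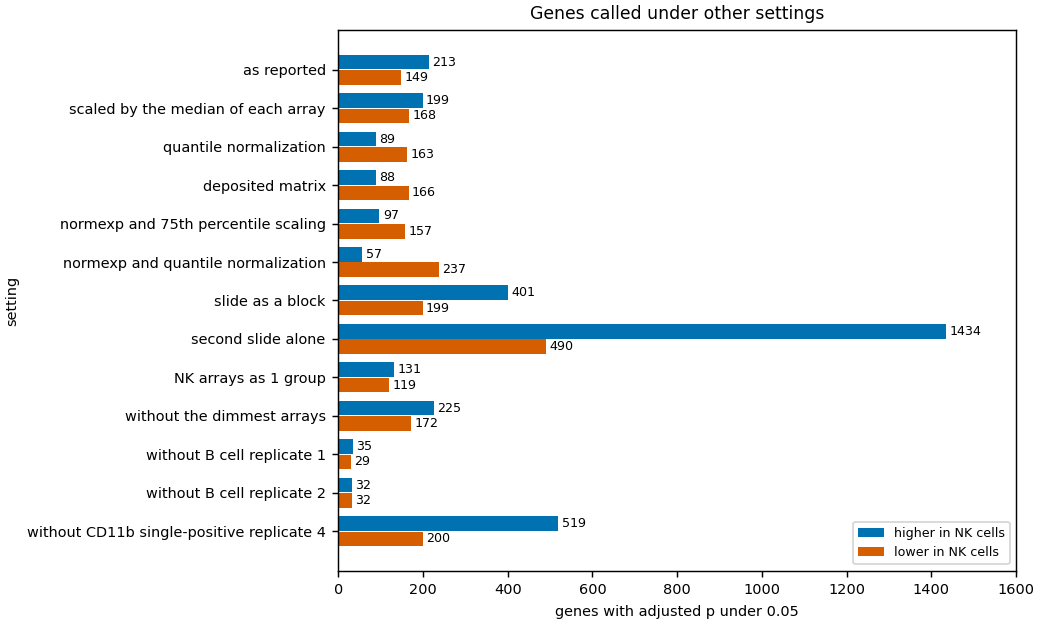
Number of genes called at an adjusted p under 0.05 (horizontal) under each treatment of the arrays (vertical), with blue bars for genes higher and orange bars for genes lower in NK cells. Leaving out a B cell array took the counts from 213 and 149 to 35 and 29 or to 32 and 32, and quantile normalization or normexp left more lower than higher genes.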

How the data were processed

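Each of the 20 arrays carried amplified RNA of sorted spleen cells on a custom Agilent design. The scanner software was Agilent Feature Extraction 10.7.1.1, and Partek was also used, per the submitters' processing notes. Per the file headers, the deposited processed signal is a background-subtracted intensity. The matrix the authors deposited holds log2 values, which followed the array signals (Pearson r of at least 0.994 over probes); its values share quantiles, its normalization is otherwise not given in the sources used here, and it served as an alternative. The number of arrays limits precision.

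Of 58659 probes, 20417 (34.8%) matched 12530 genes through RefSeq accessions. The brightest probe stood for a gene and was kept if well above background on at least 2 arrays. Log2 processed signal minus the array's 75th percentile entered limma 3.58.1 (R 4.3.3; lmFit, then trended and robust eBayes) with the 4 NK subsets and B cells without a block. P-values were adjusted by the Benjamini-Hochberg method over all genes, at 0.05. Bounds set the brighter mean against the lowest signal well above background. The normexp alternative used spot and background medians (offset 50), the mean signal not being used here. The script was checked on simulated data.

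The members, the 38 lists (476 of 710 genes tested) and the rule for named genes were chosen with earlier results of these data known. The rule took markers, up to 12 core genes a direction, up to 6 called genes a list by adjusted p (or 2 of lowest p as values), and 8 unlisted called genes a direction. A few genes so taken are not reported here. Promoter and protein sequences were not analysed. Alternatives covered scaling, background, filters, probes, slide and donor blocks, array weights and each array left out. The list counts under other settings and the split by B cell background were added after seeing the data.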

Additional observations from a re-analysis of the deposited data

Results flagged for a closer look

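Within-group outliers were sought in 116 groups of 4 or 5 NK arrays of the markers, the leading core genes and the array signal, by the gap of the most extreme array to its nearest neighbour over the group's range. Chance marks about 1 in 20 groups, and 5 levels were marked. EOMES was 3.16 in CD11b single-positive replicate 4, where the nearest of the other arrays of that subset was 0.98. NKG7 was -1.55 in CD11b single-positive replicate 1, with the nearest at 1.29. PRF1 was 0.868 in CD27 single-positive replicate 4, with the nearest at 2.35. STAP1 was -6.60 in double-positive replicate 1, with the nearest at -4.50, and -2.17 in CD11b single-positive replicate 4, with the nearest at -3.73. All 5 levels lay on the NK side of both B cell arrays.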

How the results depend on the processing

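No gene taken by the rule for named genes changed sign under any alternative. Genes higher and lower in NK cells numbered 213 and 149 as reported, 89 and 163 after quantile normalization, 57 and 237 after normexp with quantile normalization, 97 and 157 after normexp with 75th percentile scaling, and 88 and 166 in the deposited matrix. They numbered 401 and 199 with slide as a block, 1434 and 490 on the second slide alone, 131 and 119 with the NK arrays as 1 group, 4092 and 1581 with array weights (3.05 for each B cell array), and 1001 and 823 when every probe was tested. Leaving out 1 array gave 32 to 519 higher and 29 to 200 lower. Of 476 listed genes 74 were called as reported, 127 on the second slide alone, 278 with array weights, and 34 to 85 without 1 array. For these changes the cause was not tested, beyond the fewer or more arrays and probes that the alternatives hold. Of 82 called genes that this rule took, 46 were still called without B cell replicate 1 and 48 without B cell replicate 2. Replicate numbers did not pair NK with B cells by their labels, as same-numbered arrays differed in origin and sex. Deviations of these arrays from their group means had correlations of -0.03 to 0.02. With 2 B cell arrays their deviations mirror each other, so these correlations decide little, and arrays with the same labels were not set against each other in this way. The replicate block gave 244 higher and 177 lower genes, 81 of them listed. The motif search was not run. Signal over background limits the 100 higher genes that B cell arrays did not hold above it.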
